A study of Mus musculus with 9 samples.

Results

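The nuclear genes for oxidative phosphorylation were examined in the uterus of mice with and without uterine deletion of *Wnk1*. They were taken as the genes whose symbols begin with Nduf, Uqcr, Cox4 to Cox8 or Atp5 and whose mean over the 9 libraries was above 1 FPKM, a read level scaled to transcript length and library size. The pattern matched 88 of the 31274 entries of the deposited table, and 86 genes passed the FPKM limit. The gene just inside it was *Cox6a2* with a mean of 1.11 FPKM, and those outside were *Cox7b2* with 0.048 FPKM and *Cox8c*, listed at 0. By function, 36 of the 86 genes encode subunits of complex I, 8 of complex III, 16 of complex IV and 15 of complex V, and 11 encode proteins that are not subunits of these complexes. RNA came from whole uteri of C57BL/6 mice on day 4.5 of pseudopregnancy, brought on by mating with vasectomized males. The controls (Wnk1f/f, 4 mice) carried *Wnk1* alleles with exon 2 flanked by loxP sites and no Cre, and the other mice (Wnk1d/d, 5 mice) carried the same floxed alleles with Cre driven from the *Pgr* locus, which recombines in cells that express the progesterone receptor, those of the ovary and pituitary included. Each library came from 1 mouse, and the ages were not in the labels.

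Oxidative phosphorylation couples the oxidation of NADH and succinate to ATP synthesis at the inner mitochondrial membrane. Complex I takes electrons from NADH and passes them to ubiquinone, complex III passes them on to cytochrome c, complex IV reduces oxygen, and the proton gradient that these complexes build drives the ATP synthase, complex V. Some subunits of each of these complexes, core subunits among them, are encoded in mitochondrial DNA, while the genes described here are nuclear and their products are imported. Several complex IV subunits have isoforms encoded by separate genes, with a widespread form and others typical of heart and skeletal muscle, lung, testis or cells that sense oxygen. The uterine wall holds epithelium, stroma, blood vessels and myometrium, the smooth muscle layer.

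The targeted gene was lower in all Wnk1d/d libraries, with *Wnk1* at 43.4 to 47.3 FPKM in Wnk1f/f and 29.9 to 33.9 FPKM in Wnk1d/d uteri; FPKM of the gene includes exons outside the deletion. Among the markers of uterine cell types, all 8 of smooth muscle were higher in Wnk1d/d uteri. All 7 of endothelium and 6 of 6 of pericytes were lower. Of the others, 2 of 7 epithelial markers were higher and 5 of 7 stromal and 3 of 5 gland markers were lower. All calls are from limma at an adjusted p under 0.05 over 14728 genes, of which 11.1% were higher and 11.0% lower. Wnk1f/f replicate 4 stood apart in its liver markers, which summed to 120 FPKM against 6.2 to 9.63 FPKM in the other controls and 8.03 to 26.0 FPKM in Wnk1d/d libraries. In Wnk1d/d replicate 4 a single short entry held 70.3% of the summed FPKM, and the libraries' medians over the tested genes were 3.80 to 3.82 on the log2 scale. In whole tissue, fewer cells of a type and less RNA per cell cannot be told apart.

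Most of the genes for the 4 complexes were abundant. Mean FPKM over the 9 libraries ran from 1.11 to 898 with a median of 110, and 48 of the 86 genes were above 100 FPKM, a level reached by 6.02% of the genes tested. *Cox4i1*, the widespread form of complex IV subunit 4, had the highest mean with 898 FPKM, followed by *Ndufa4* with 742 FPKM and *Atp5e*, the epsilon subunit of the ATP synthase, with 714 FPKM. Medians of mean FPKM were 120 for complex I, 125 for complex III, 149 for complex IV and 252 for complex V. The genes that encode no subunit lay lower, with a median of 15.7 FPKM, as did the 5 tissue-restricted isoforms of complex IV, with a median of 6.46 FPKM. The transcripts were short, with a median length of 624 bases against 1769 bases over the tested genes that had a length in GENCODE release M21.

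**Figure D1:**
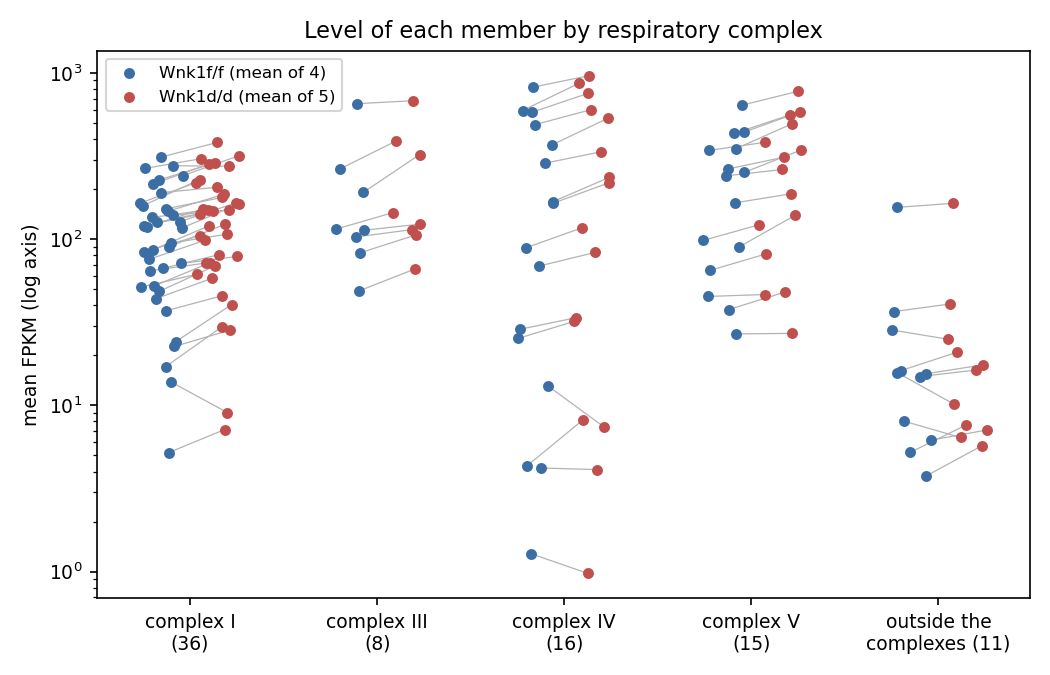
Mean FPKM (log axis) of each of the 86 genes in Wnk1f/f uteri (blue, mean of 4 libraries) and Wnk1d/d uteri (red, mean of 5 libraries), grouped by respiratory complex, with a grey line joining the 2 values of a gene. Most lines rise slightly from blue to red, and the lines that fall lie mainly among low genes of complex IV and the genes outside the complexes.

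The comparison of Wnk1d/d with Wnk1f/f uteri showed a small rise shared by the 4 complexes. Of the 86 genes, 27 (31.4%) were higher in Wnk1d/d uteri at an adjusted p under 0.05, a call made for 11.1% of all genes tested, and 3 were lower, against 11.0% of all genes. The remaining 56 genes did not pass the test. The log2 fold change, taken on log2(FPKM + 1), was above 0 for 78 of the 86 genes and for 50.5% of all genes, and its median was 0.31 against 0.00. Changes were mostly small: 6 of the 86 genes also had means that differed at least 1.5 times, as did 10.3% of all genes. The Wnk1d/d libraries lay above all Wnk1f/f libraries for 18 genes (background 9.27%) and below all of them for 3 genes (background 10.6%).

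By complex, 12 of 36 subunits of complex I, 3 of 8 of complex III, 5 of 16 of complex IV and 4 of 15 of complex V were higher, and 1 complex IV isoform was lower. The median log2 fold changes were 0.34, 0.34, 0.33 and 0.31. Grouped by symbol alone, the medians were 0.33 for the 45 Nduf genes, 0.34 for the 8 Uqcr genes, 0.30 for the 16 Cox genes and 0.28 for the 17 Atp5 genes. Of the 11 genes that encode no subunit, 3 were higher and 2 lower, with a median of 0.14. The groups thus had nearly equal medians, apart from the last. Quantile normalization, which moved the median of the 86 genes to 0.19, left 15 higher (17.4%, against 10.3% of all genes).

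**Figure D2:**
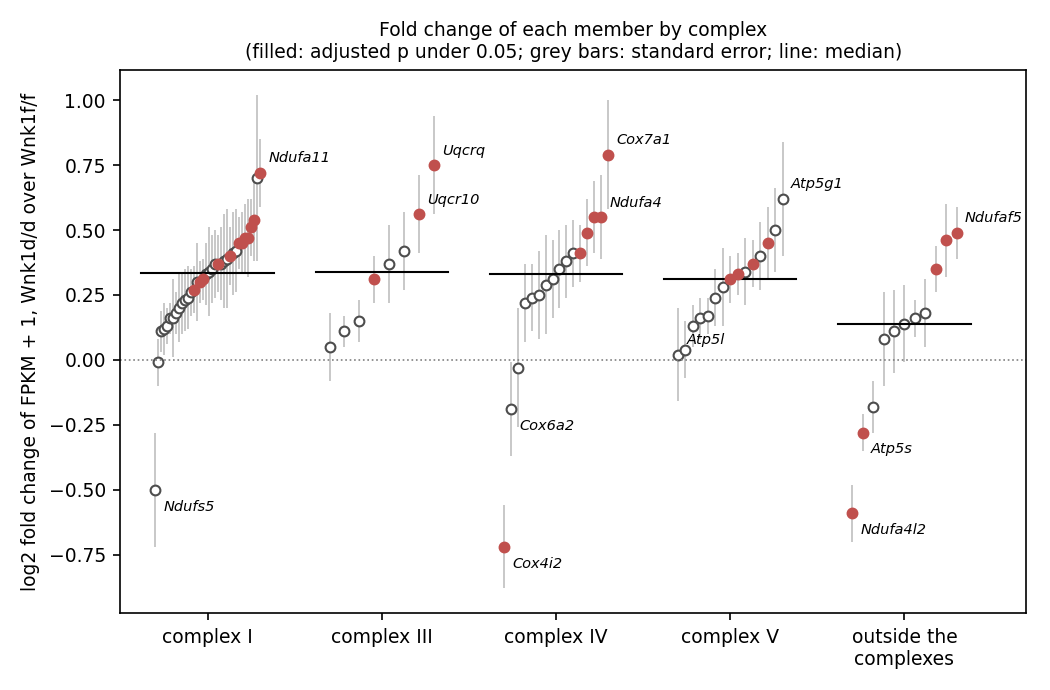
Log2 fold change of FPKM + 1 (Wnk1d/d over Wnk1f/f) for each of the 86 genes, ordered within each complex, with the standard error in grey, the median of the complex as a line, and filled points for an adjusted p under 0.05. The medians of the 4 complexes lie between 0.31 and 0.34, while *Cox4i2* and *Ndufa4l2* have the lowest values, -0.72 and -0.59, followed by *Ndufs5* at -0.50.

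The number of calls fell in every fit without 1 library except that without Wnk1d/d replicate 2, where it rose. Wnk1f/f replicate 4 had the lowest of the 9 values for 74 of the 86 genes, Wnk1d/d replicate 4 had the highest for 64, and Wnk1d/d replicate 2 was the lowest of its genotype for 74. Deviations were taken on the log2 scale from the midpoint of the 2 genotype means of each gene. The median deviation of the 86 genes was -0.06, -0.01, -0.10 and -0.42 in Wnk1f/f replicates 1 to 4. It was 0.16, -0.07, 0.17, 0.37 and 0.16 in Wnk1d/d replicates 1 to 5. The genotypes overlapped on this measure, because Wnk1d/d replicate 2 lay below 2 of the controls. Without Wnk1f/f replicate 4, 6 genes were higher (6.98%, against 5.66% of all genes) and the median was 0.22, still with 75 of 86 genes above 0. Without Wnk1d/d replicate 3 the count was also 6 (6.98%, against 5.85%), without replicate 4 it was 8 (9.30%, against 7.53%), and without replicate 5 it was 7 (8.14%, against 6.79%). It was 14 without Wnk1d/d replicate 1 (16.3%, against 8.14%), 16 without Wnk1f/f replicate 1 (18.6%, against 7.98%), 21 without Wnk1f/f replicate 2 or 3 (24.4%, against 8.27% and 9.42%), and 45 (52.3%, against 14.9%) without Wnk1d/d replicate 2. Over these 9 fits, each without 1 library, the median log2 fold change of the 86 genes stayed between 0.22 and 0.37, and 75 to 80 genes were above 0.

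The complexes moved together from library to library. In Wnk1f/f replicate 4 the median deviation was -0.43 for complex I, -0.38 for complex III, -0.58 for complex IV and -0.41 for complex V, and in Wnk1d/d replicate 4 it was 0.37, 0.37, 0.41 and 0.31. The smooth muscle markers deviated by -0.05, -0.66, -0.33 and -1.11 in Wnk1f/f replicates 1 to 4 and by 0.43, 0.08, 0.54, 0.93 and 0.83 in Wnk1d/d replicates 1 to 5. They were lowest and highest in the same libraries as the subunits, and within Wnk1d/d replicate 2 was again the lowest. The order differed among other libraries. Wnk1f/f replicate 2 was the highest control for the subunits (-0.02) but lay below replicates 1 and 3 for the markers. Wnk1d/d replicate 5 was near the top for the markers, with the subunits at 0.18 as in replicate 3. Summed smooth muscle marker FPKM was 3010 to 6760 in Wnk1f/f and 7570 to 14200 in Wnk1d/d uteri. The part of smooth muscle content in the rise of the subunits was not tested.

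**Figure D3:**
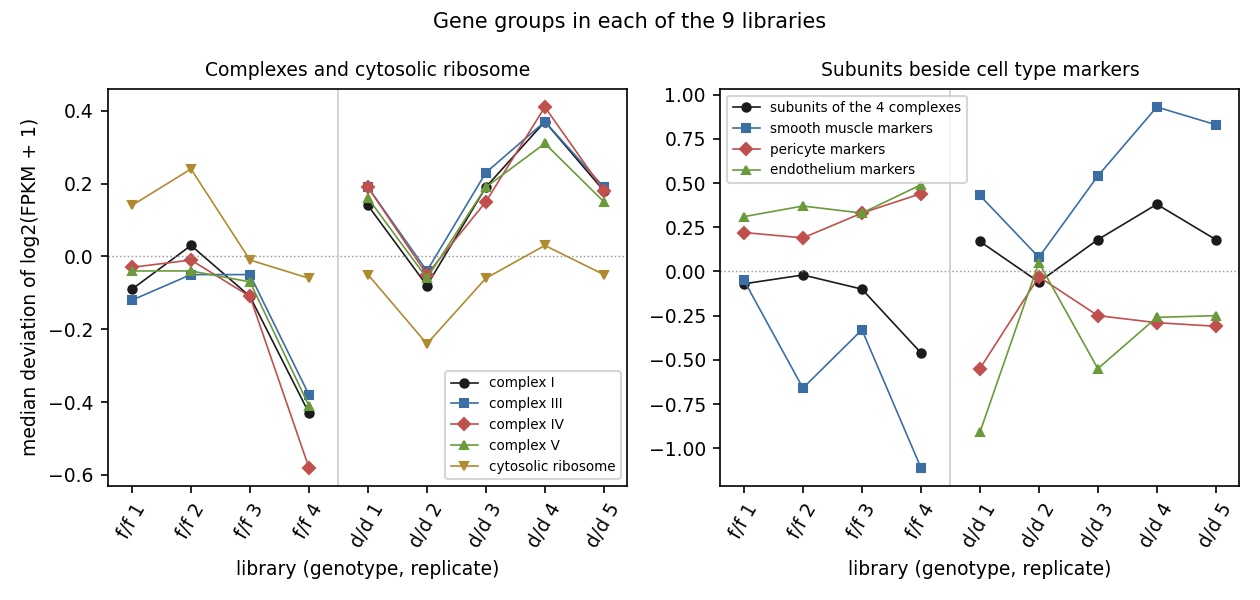
Median deviation of log2(FPKM + 1) from the mean over the 9 libraries, for each complex and the cytosolic ribosome (left) and for all subunits beside marker lists of 3 cell types (right), with libraries along the x axis and a line between genotypes. The 4 complexes run together, from -0.58 to -0.38 in Wnk1f/f replicate 4 up to 0.31 to 0.41 in Wnk1d/d replicate 4, while the cytosolic ribosome does not follow them.

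Promoter windows of the members were searched for short motifs. RefSeq (GRCm38.p6) held a window of 250 bases before and 50 after the start for 72 of the 86 genes. The palindromic site of NRF1, a transcription factor known to act on many respiratory genes, was searched in its full length, shown in capitals in the promoters below; being a palindrome, it reads alike on both strands. It was held by 7 of the 72 windows (9.72%), by 2.14% of the windows of the tested genes and by 1.07% of all genes with a window. The 7 genes were *Atp5g2*, *Atp5k*, *Cox6a1*, *Ndufa11*, *Ndufaf4*, *Ndufaf5* and *Uqcrc1*. The last 5 were among the 24 genes that rose, of the 72 with a window. Its inner letters GCATGCGC, on either strand and including the windows above, were in 15.3% of the members' and 5.63% of the tested genes' windows. AAGATGGC, the letters of YY1, were on either strand in 15.3% and 4.90%, and CCGGAAGT, those of ETS factors such as GABPA, in 6.94% and 8.59%. ACGTG, the letters of hypoxia response elements, were in 26.4% and 28.7%, and TATAAA, those of the TATA box, in 8.33% and 9.16%. Of the 24 genes that rose, 5 held the inner letters of NRF1, 4 those of YY1 and 1 those of ETS factors. The letters of hypoxia response elements were held by 5 and those of the TATA box by 0. Such matches describe letters and not binding, and a link between letters and the rise was not tested.

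The 250 bases before the start are shown for 3 of the genes that rose with the NRF1 letters, in capitals, and for *Cox7a1*, the complex IV gene with the largest rise, whose window holds no such site. They lie at chr17:56717512-56717761 (plus strand, *Ndufa11*), chr5:115348959-115349208 (minus strand, *Cox6a1*), chr4:24897833-24898082 (plus strand, *Ndufaf4*) and chr7:30183921-30184170 (plus strand, *Cox7a1*) on GRCm38.p6, directly upstream of the RefSeq gene start, and are written 5′ to 3′ on the strand of the gene.
Ndufa11: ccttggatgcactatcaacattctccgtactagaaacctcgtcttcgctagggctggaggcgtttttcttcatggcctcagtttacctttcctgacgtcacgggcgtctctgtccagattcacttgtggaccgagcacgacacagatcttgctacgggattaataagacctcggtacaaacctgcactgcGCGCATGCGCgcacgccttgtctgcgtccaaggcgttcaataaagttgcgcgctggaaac
Cox6a1: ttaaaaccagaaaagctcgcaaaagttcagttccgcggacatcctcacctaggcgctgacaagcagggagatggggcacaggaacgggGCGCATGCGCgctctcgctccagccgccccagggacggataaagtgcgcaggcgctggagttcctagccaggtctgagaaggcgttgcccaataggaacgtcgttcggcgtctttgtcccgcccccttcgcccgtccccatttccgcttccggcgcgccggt
Ndufaf4: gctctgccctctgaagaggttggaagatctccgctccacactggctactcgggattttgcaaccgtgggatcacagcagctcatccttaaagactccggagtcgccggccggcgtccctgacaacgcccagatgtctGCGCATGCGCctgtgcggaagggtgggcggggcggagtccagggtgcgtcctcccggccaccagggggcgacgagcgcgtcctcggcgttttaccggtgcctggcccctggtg
Cox7a1: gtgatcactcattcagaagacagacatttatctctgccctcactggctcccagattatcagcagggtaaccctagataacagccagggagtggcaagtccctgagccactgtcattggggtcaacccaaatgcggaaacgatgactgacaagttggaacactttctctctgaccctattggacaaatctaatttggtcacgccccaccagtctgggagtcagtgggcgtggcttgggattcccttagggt

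In complex I, *Ndufa11* rose the most. This accessory subunit of the membrane arm had 25.2, 27.5, 24.8 and 18.9 FPKM in Wnk1f/f replicates 1 to 4 and 37.9, 31.9, 44.1, 46.2 and 41.7 FPKM in Wnk1d/d replicates 1 to 5. The lowest Wnk1d/d library was above the highest control, and the log2 fold change was 0.72 ± 0.13 (SE, limma adjusted p = 0.00774). It passed the test in each of the 9 fits without 1 library. Its exons overlap those of *Vmac* on the other strand, and the libraries are not stated to be stranded, so reads of the overlap cannot be told apart; *Vmac* had 25.5 and 26.5 FPKM in the means (log2 fold change 0.06).

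*Ndufab1*, the mitochondrial acyl carrier protein, had 50.9, 50.6, 53.4 and 38.8 FPKM in the 4 controls and 71.6, 56.5, 71.8, 74.99 and 70.1 FPKM in the 5 Wnk1d/d libraries. The genotypes did not overlap (log2 fold change 0.51 ± 0.11 SE, limma adjusted p = 0.0149). *Ndufs8*, a core subunit that carries iron-sulphur clusters, had 91.8, 96.9, 96.7 and 74.3 FPKM in Wnk1f/f and 118, 104, 128, 136 and 129 FPKM in Wnk1d/d uteri. Its libraries did not overlap either (log2 fold change 0.45 ± 0.10 SE, limma adjusted p = 0.0177), and both genes kept their calls in the 9 fits without 1 library. *Ndufa1*, an X-linked subunit, had 173, 175, 176 and 111 FPKM in Wnk1f/f and 212, 189, 237, 265 and 237 FPKM in Wnk1d/d uteri. Wnk1f/f replicate 4 lay far below the other controls for this gene; the log2 fold change was 0.54 ± 0.16 (SE, limma adjusted p = 0.0371). Its call was lost in 7 of the 9 fits, kept without Wnk1f/f replicate 3 or Wnk1d/d replicate 2, with limma adjusted p up to 0.082.

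The nuclear core subunits, which carry the flavin and the iron-sulphur clusters or form the quinone site, rose in 4 of 7 cases. Besides *Ndufs8* these were *Ndufv2*, *Ndufs3* and *Ndufs1*, with log2 fold changes of 0.37, 0.31 and 0.30. *Ndufs1*, which holds the most iron-sulphur clusters, had 38.6, 32.4, 40.9 and 35.9 FPKM in Wnk1f/f and 46.6, 41.5, 46.6, 46.5 and 46.8 FPKM in Wnk1d/d uteri. All of its Wnk1d/d libraries were above the controls (limma adjusted p = 0.0234), and the call was lost without Wnk1f/f replicate 4 or Wnk1d/d replicate 3 or 5 (limma adjusted p up to 0.063). *Ndufs3* lost its call without Wnk1f/f replicate 1 or 4 or Wnk1d/d replicate 3 or 5 (limma adjusted p up to 0.08), and *Ndufv2* kept its call without Wnk1d/d replicate 2 and lost it in the other 8 fits (limma adjusted p up to 0.12). *Ndufv1*, the subunit that binds NADH, did not pass (log2 fold change 0.13, limma adjusted p = 0.212), nor did *Ndufs7* (0.23).

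Among the 29 accessory subunits 8 rose, with a median log2 fold change of 0.35 over the 29. They were *Ndufa11*, *Ndufa1*, *Ndufab1*, *Ndufb6* (0.47), *Ndufc1* (0.47), *Ndufb2* (0.45), *Ndufb9* (0.40) and *Ndufa9* (0.27, limma adjusted p = 0.0495). The calls of *Ndufb6*, *Ndufc1*, *Ndufb2* and *Ndufb9* were lost in 7, 6, 5 and 6 of the 9 fits without 1 library (limma adjusted p up to 0.12), among them those without Wnk1f/f replicate 4 or Wnk1d/d replicate 3, 4 or 5. *Ndufa3*, the most abundant complex I gene, had 311 ± 55.1 FPKM (SD, n = 4) and 381 ± 53.3 FPKM (SD, n = 5) and did not pass (limma adjusted p = 0.167). The lowest log2 fold change of complex I belonged to *Ndufs5*, with 8.73, 20.6, 14.9 and 10.8 FPKM in Wnk1f/f and 8.96, 7.22, 8.52, 11.8 and 8.74 FPKM in Wnk1d/d uteri. Its libraries overlapped and it did not pass (log2 fold change -0.50, limma adjusted p = 0.123); 46.9% of its longest transcript is shared with other annotated genes.

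In complex III, *Uqcrq*, *Uqcr10* and *Uqcrc1* were higher and no gene was lower. *Uqcrq*, a small accessory subunit, had 211, 212, 207 and 133 FPKM in Wnk1f/f and 293, 231, 350, 395 and 341 FPKM in Wnk1d/d uteri. Wnk1f/f replicate 4 was far below the other controls and Wnk1d/d replicate 2 was nearest to them, without overlap (log2 fold change 0.75 ± 0.19 SE, limma adjusted p = 0.0217). The call was lost without Wnk1d/d replicate 3 (limma adjusted p = 0.055). *Uqcr10* had 284, 295, 273 and 202 FPKM in Wnk1f/f and 361, 309, 411, 466 and 398 FPKM in Wnk1d/d uteri, again without overlap (log2 fold change 0.56 ± 0.15 SE, limma adjusted p = 0.0255). *Uqcrc1*, a core protein of the matrix side, changed less (log2 fold change 0.31, limma adjusted p = 0.0409). The call of *Uqcr10* was lost without Wnk1f/f replicate 4 or Wnk1d/d replicate 3, 4 or 5 (limma adjusted p up to 0.062), and that of *Uqcrc1* also without replicate 1 of either genotype (up to 0.11). The other core proteins did not pass: *Uqcrfs1*, the Rieske iron-sulphur protein, had a log2 fold change of 0.15, and *Uqcrc2* had 0.11 (-0.04 under quantile normalization). *Uqcrh*, the most abundant of the 8, had 652 ± 75.6 FPKM (SD, n = 4) and 679 ± 96.9 FPKM (SD, n = 5), with a log2 fold change of 0.05 that was -0.16 under quantile normalization.

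Complex IV has 11 widespread subunits and 5 tissue-restricted isoforms among the 16 genes. All 11 widespread subunits had a log2 fold change above 0, between 0.24 and 0.55, and 4 were higher at an adjusted p under 0.05: *Ndufa4*, *Cox6a1*, *Cox5a* and *Cox7b*. *Ndufa4*, once assigned to complex I and now counted with complex IV, had 685, 601, 662 and 424 FPKM in Wnk1f/f and 946, 692, 821, 966 and 885 FPKM in Wnk1d/d uteri. The genotypes were separated by a narrow gap between a control of 685 and a Wnk1d/d library of 692 FPKM (log2 fold change 0.55 ± 0.16 SE, limma adjusted p = 0.0372). *Cox6a1* had 432, 397, 370 and 273 FPKM in Wnk1f/f and 501, 456, 549, 623 and 538 FPKM in Wnk1d/d uteri, with no overlap (log2 fold change 0.55 ± 0.14 SE, limma adjusted p = 0.0265). *Cox5a* and *Cox7b* had log2 fold changes of 0.49 and 0.41, with overlapping libraries. *Cox4i1* did not pass (0.24, limma adjusted p = 0.202), nor did *Cox8a* (0.38, limma adjusted p = 0.0781). The call of *Cox6a1* was lost without Wnk1d/d replicate 3, 4 or 5 (limma adjusted p up to 0.062). Those of *Ndufa4*, *Cox5a* and *Cox7b* were lost in 6, 6 and 7 of the 9 fits (up to 0.077), among them the same 3 and that without Wnk1f/f replicate 4.

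Of the 5 isoforms, *Cox4i2* was lower, *Cox7a1* was higher, and *Cox6a2*, *Cox6b2* and *Cox8b* did not pass. *Cox4i2*, the isoform of subunit 4 known from lung and from oxygen-sensing and vascular cells, had 10.2, 17.0, 14.2 and 10.8 FPKM in Wnk1f/f and 5.57, 6.81, 8.04, 9.04 and 7.71 FPKM in Wnk1d/d uteri. All Wnk1d/d libraries were below all controls (log2 fold change -0.72 ± 0.16 SE, limma adjusted p = 0.016), and the call was kept in each fit without 1 library. *Cox7a1*, the heart and skeletal muscle form of subunit 7a, had 5.22, 4.0, 5.43 and 2.63 FPKM in Wnk1f/f and 8.58, 5.66, 6.66, 9.86 and 10.1 FPKM in Wnk1d/d uteri. It was low in all libraries and did not overlap (log2 fold change 0.79 ± 0.21 SE, limma adjusted p = 0.0258), but the call was lost without Wnk1f/f replicate 2 or 4 or Wnk1d/d replicate 1, 4 or 5 (limma adjusted p up to 0.061). Among the others, *Cox6b2*, known from testis, was at 28.7 ± 4.78 and 33.7 ± 5.84 FPKM (SD, n = 4 and 5). The muscle forms *Cox8b* and *Cox6a2* were at 4.20 ± 1.41 and 4.11 ± 1.51 FPKM and at 1.28 ± 0.502 and 0.978 ± 0.302 FPKM.

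*Ndufa4l2*, a paralog of *Ndufa4* that is induced by hypoxia and is not counted as a subunit here, fell like *Cox4i2*. It had 14.8, 18.2, 15.1 and 14.9 FPKM in Wnk1f/f and 8.98, 10.2, 9.36, 13.0 and 9.35 FPKM in Wnk1d/d uteri. The genotypes did not overlap (log2 fold change -0.59 ± 0.11 SE, limma adjusted p = 0.00837), and the call was kept in each fit without 1 library. Its exons overlap *Shmt2* on the other strand, which had 31.6 and 31.3 FPKM in the means (log2 fold change -0.01).

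The balance within isoform pairs was compared as a ratio in each library, for 8 pairs, by exact permutation (two-sided), which cannot go below p = 0.0079 with 4 and 5 libraries; these p-values were not adjusted over the pairs. *Cox4i2* FPKM was 1.26%, 1.75%, 1.75% and 1.59% of *Cox4i1* FPKM in Wnk1f/f and 0.557%, 0.843%, 0.857%, 0.822% and 0.803% in Wnk1d/d uteri (log2 difference of ratios -1.04, exact permutation p = 0.0079). *Ndufa4l2* was 2.16% to 3.51% of *Ndufa4* in Wnk1f/f and 0.950% to 1.48% in Wnk1d/d uteri (-1.19, exact permutation p = 0.0079). Each gene of this pair alone separated the genotypes, in opposite directions. This ratio therefore had to separate them too, and its p adds nothing to the single genes. In both pairs the paralog with the lower level lost ground in all Wnk1d/d libraries. *Atp5g2* was 10.3 ± 0.593% of *Atp5g3* (SD, n = 4) in Wnk1f/f and 7.98 ± 0.389% (SD, n = 5) in Wnk1d/d uteri. The libraries did not overlap (-0.37, exact permutation p = 0.0079). Both genes encode the same mature subunit c of the ATP synthase rotor. Of the longest *Atp5g2* transcript 26.8% is shared with other annotated genes, so its values are uncertain. *Cox7a1* was 2.60 ± 0.514% and 3.72 ± 0.608% of *Cox7a2*, with overlapping libraries (0.53, exact permutation p = 0.04). For *Cox6a2* to *Cox6a1*, *Cox6b2* to *Cox6b1*, *Cox8b* to *Cox8a* and *Atp5g1* to *Atp5g3* the log2 differences were -0.91, -0.08, -0.42 and 0.22, with exact permutation p of 0.13, 0.85, 0.13 and 0.19.

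**Figure D4:**
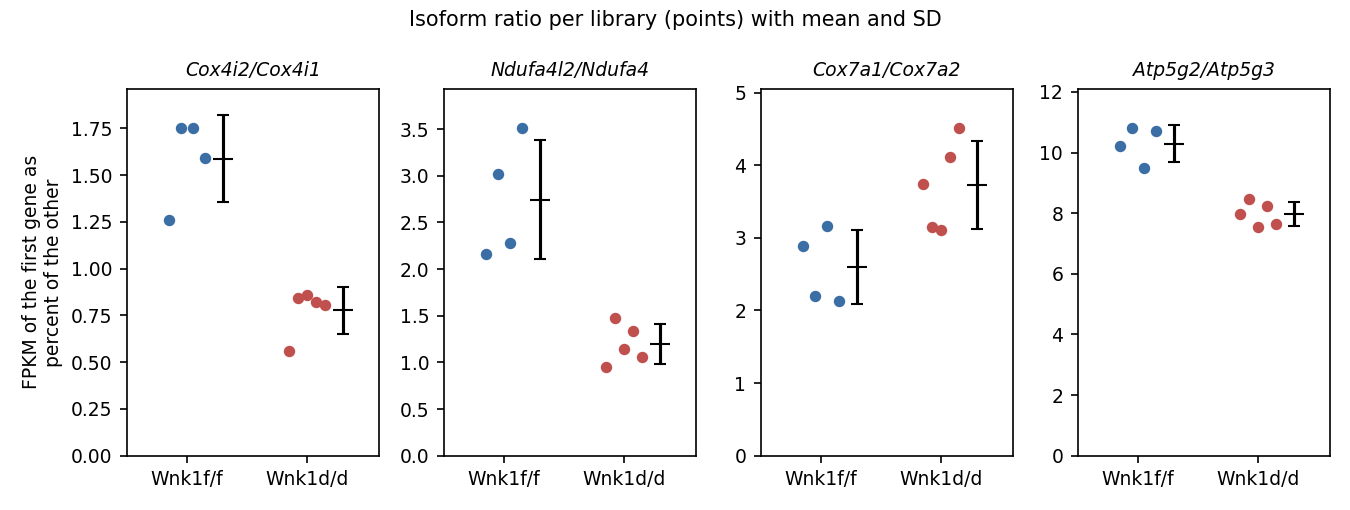
FPKM of the first gene as a percent of the other in each library for 4 isoform pairs, with Wnk1f/f libraries in blue (n = 4), Wnk1d/d libraries in red (n = 5), and the mean and SD in black beside them. The points of the genotypes are separate for *Cox4i2*/*Cox4i1*, *Ndufa4l2*/*Ndufa4* and *Atp5g2*/*Atp5g3* and overlap for *Cox7a1*/*Cox7a2*.

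*Cox4i2*, *Ndufa4l2* and *Cox7a1* were set beside markers of other cells. Summed pericyte markers were 139 to 171 FPKM in Wnk1f/f and 86.4 to 115 FPKM in Wnk1d/d uteri. Summed endothelial markers were 382 to 419 and 159 to 307 FPKM. Within genotypes, the pericyte sum was highest in Wnk1f/f replicate 4 (171 FPKM) and Wnk1d/d replicate 2 (115 FPKM). *Cox4i2* and *Ndufa4l2* were highest in Wnk1f/f replicate 2 (17.0 and 18.2 FPKM) and Wnk1d/d replicate 4 (9.04 and 13.0 FPKM). Per summed pericyte markers, *Cox4i2* was 8.84 ± 2.63% (SD, n = 4) in Wnk1f/f and 7.49 ± 1.35% (SD, n = 5) in Wnk1d/d uteri, and *Ndufa4l2* was 10.6 ± 1.85% and 10.3 ± 1.78%. On this scale the genotypes overlapped for both genes (log2 differences -0.21 and -0.05, exact permutation p = 0.40 and 0.75). Per summed endothelial markers the log2 differences were 0.01 and 0.17, also with overlap. For *Cox7a1*, 3 of 4 tested striated muscle markers were higher. The 5 listed markers summed to 74.2 to 194 FPKM in Wnk1f/f and 269 to 483 FPKM in Wnk1d/d uteri. *Acta1* had the highest level of them, with means of 112 and 298 FPKM. *Mylpf* did not pass (1.58 and 1.92 FPKM, limma adjusted p = 0.271), and *Myh4* was almost absent (0.005 and 0.002 FPKM). Per summed smooth muscle markers *Cox7a1* was lower in Wnk1d/d uteri, by a log2 difference of -0.28 (exact permutation p = 0.04), and per striated muscle markers by -0.52 (exact permutation p = 0.032), with overlap in both. These ratios were chosen after the values were seen, and the part of cell content in the changes of the 3 genes was not tested.

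In complex V, *Atp5b*, *Atp5f1*, *Atp5j2* and *Atp5o* were higher. *Atp5b*, the catalytic beta subunit, had 460, 435, 457 and 376 FPKM in Wnk1f/f and 544, 495, 590, 606 and 562 FPKM in Wnk1d/d uteri. Its libraries did not overlap (log2 fold change 0.37 ± 0.09 SE, limma adjusted p = 0.0231), and the call was lost without Wnk1f/f replicate 4 or Wnk1d/d replicate 3, 4 or 5 (limma adjusted p up to 0.06). *Atp5f1*, subunit b of the peripheral stalk, had 65.0, 64.7, 71.8 and 57.6 FPKM in Wnk1f/f and 87.9, 73.5, 80.4, 85.5 and 80.3 FPKM in Wnk1d/d uteri. Here Wnk1d/d replicate 2, at 73.5 FPKM, was just above the highest control (log2 fold change 0.33 ± 0.08 SE, limma adjusted p = 0.0195), and this call was lost without Wnk1f/f replicate 4 (limma adjusted p = 0.052). *Atp5o* and *Atp5j2* had log2 fold changes of 0.31 and 0.45, with calls lost in 8 and 7 of the 9 fits, both of them kept without Wnk1d/d replicate 2. Of the other F1 subunits, *Atp5a1* (alpha), *Atp5c1* (gamma), *Atp5d* and *Atp5e* had values of 0.16, 0.17, 0.13 and 0.28 and did not pass, with *Atp5a1* at -0.02 under quantile normalization.

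The largest and smallest values of complex V did not pass the test. *Atp5g1*, a gene for subunit c, had 90.1, 104, 105 and 59.3 FPKM in Wnk1f/f and 122, 93.5, 153, 186 and 138 FPKM in Wnk1d/d uteri. Wnk1d/d replicate 2 lay within the range of the controls (log2 fold change 0.62, limma adjusted p = 0.0686). The other genes for subunit c, *Atp5g3* and *Atp5g2*, had 0.40 (limma adjusted p = 0.0522) and 0.04, the latter -0.02 under quantile normalization. *Atp5l*, subunit g, had 26.9 ± 6.28 and 27.1 ± 5.42 FPKM (SD, n = 4 and 5; log2 fold change 0.02, and -0.01 under quantile normalization), and 72.2% of its longest transcript is shared with other annotated genes.

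Of the 9 assembly factors, *Ndufaf5*, *Ndufaf4* and *Ndufaf3* were higher and *Atp5s* was lower. *Ndufaf5*, which acts early in building complex I, had 3.67, 3.97, 3.96 and 3.44 FPKM in Wnk1f/f and 5.58, 4.47, 6.08, 6.39 and 6.11 FPKM in Wnk1d/d uteri. No libraries overlapped (log2 fold change 0.49 ± 0.10 SE, limma adjusted p = 0.0103), and the call was kept in each fit without 1 library. *Ndufaf4* and *Ndufaf3* had log2 fold changes of 0.46 and 0.35, and their calls were lost in 7 and 3 of the 9 fits, among them those without Wnk1f/f replicate 4 or Wnk1d/d replicate 3 or 4 (limma adjusted p up to 0.093). *Atp5s*, a coupling factor of the ATP synthase, had 8.79, 8.22, 7.49 and 7.57 FPKM in Wnk1f/f and 7.15, 6.41, 5.84, 6.54 and 6.11 FPKM in Wnk1d/d uteri. The gap between the genotypes was narrow (log2 fold change -0.28 ± 0.07 SE, limma adjusted p = 0.027), and the call was lost without Wnk1f/f replicate 1 or 2 or Wnk1d/d replicate 3 or 5 (limma adjusted p up to 0.072). *Ndufaf1*, *Ndufaf2*, *Ndufaf6*, *Ndufaf7* and *Atp5sl* did not pass, with values between -0.18 and 0.18. *Cox7a2l*, a factor of respiratory supercomplexes, had 136, 209, 141 and 136 FPKM in Wnk1f/f and 208, 135, 137, 193 and 147 FPKM in Wnk1d/d uteri, a wide spread within both genotypes (log2 fold change 0.08, and -0.08 under quantile normalization).

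Sequence shared with other genes was checked for all members. At least 25% of the longest coding transcript was shared with other annotated genes, at 98% identity over 75 bases or more, for 18 of the 86 genes. Of these, 5 were higher and none was lower, with a median log2 fold change of 0.33. Of the 57 genes that shared nothing, 17 were higher and 3 lower, with a median of 0.28. The values of the 18 genes are uncertain, since reads may have been divided among copies. *Ndufs3* shared the most, 83.8%, and *Atp5f1* shared 64.6%. The other called genes among them were *Cox5a* (42.0%), *Ndufb6* (39.0%) and *Ndufb9* (28.7%). Exons of 32 of the 86 genes overlap another annotated gene, mostly on the other strand; the partner of *Atp5f1*, *Wdr77*, rose as well (log2 fold change 0.36, limma adjusted p = 0.0193).

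Neighbouring mitochondrial pathways were compared by lists, beside the 11.1% of all genes tested that were higher and the 11.0% that were lower. Among 7 subunits outside the symbol pattern *Cycs* and *Cyc1*, cytochrome c and c1, were higher (log2 fold changes 0.60 and 0.44), with a list median of 0.33. The means of *Cycs* in Wnk1f/f and Wnk1d/d uteri, 1.18 and 2.35 FPKM, were near the filter of 1 FPKM. Those of *Cyc1* were 109 and 148 FPKM. Shared sequence was not checked for the genes of the lists. Of the 4 genes for complex II, succinate dehydrogenase, *Sdhb* was higher, with 103 ± 3.69 FPKM (SD, n = 4) and 143 ± 6.51 FPKM (SD, n = 5; log2 fold change 0.47, limma adjusted p = 0.00257). *Sdha*, *Sdhc* and *Sdhd* did not pass (0.03, 0.28 and 0.23). The citric acid cycle had 9 of 17 genes higher and none lower, with a median of 0.25, led by *Idh3a* (0.60), *Mdh2* (0.40) and *Suclg1* (0.37). Glycolysis and lactate transport had 12 of 20 higher and 1 lower, with a median of 0.43, led by *Slc16a1* (1.03), *Ldha* (0.77) and *Hk2* (0.66), while *Pfkm* fell (-0.30).

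Lists for the upkeep of the organelle also held genes that rose, beside 11.1% of all genes tested. Of 76 mitochondrial ribosomal proteins 21 were higher and none lower (median 0.20), with *Mrpl20* (0.67), *Mrpl54* (0.55) and *Mrps28* (0.52) ahead. Of 37 assembly factors with other symbols 9 were higher and *Oxa1l* was lower (median 0.19), with *Uqcc2* (0.78), *Tmem70* (0.64) and *Higd1a* (0.63) ahead. Import and outer membrane genes had 5 of 25 higher (median 0.24), among them *Timm23* (0.45), *Timm8b* (0.38) and *Timm17a* (0.37). Carriers had 3 of 6 tested genes higher, among them *Ckmt1*, a mitochondrial creatine kinase (1.87), and *Slc25a5* (0.61), with a median of 0.32. Antioxidant genes had 2 of 8 higher, *Gpx1* (0.71) and *Prdx3* (0.36), with a median of 0.17.

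Other lists did not share the direction, beside 11.1% higher and 11.0% lower over all genes tested. Regulators of mitochondrial biogenesis had 2 of 17 higher and 3 lower (median -0.05): *Ppargc1b* (0.49) and *Esrra* (0.31) rose, and *Myc* (-0.55), *Polg2* (-0.36) and *Ppara* (-0.30) fell. *Nrf1*, *Tfam* and *Gabpa* did not pass (0.03, -0.04 and -0.10). Fatty acid oxidation had 2 of 15 higher and 2 lower (median -0.03), with *Etfdh* at 0.44 and *Cpt1b* and *Hadh* at -0.64 and -0.28. Hypoxia response genes had 4 of 15 higher and 6 lower, with *Hif1a* at 0.78, *Ndrg1* at -0.83 and *Adm* at -0.67. Cytosolic ribosomal proteins had 1 of 79 higher (*Rps4l*, 0.80) and 3 lower (median -0.15), *Rpl12* (-0.44) and *Rps13* (-0.34) among them. The subunits encoded in mitochondrial DNA were not analysed here.

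**Figure D5:**
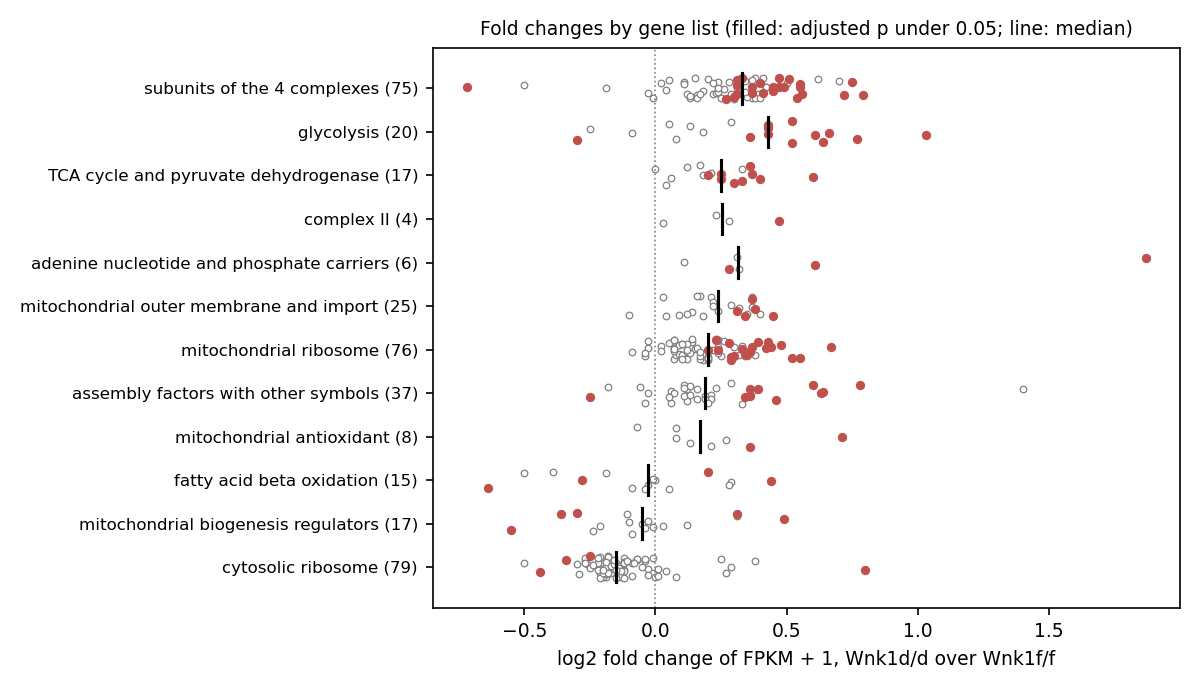
Log2 fold change of FPKM + 1 (Wnk1d/d over Wnk1f/f) of every tested gene of 12 lists, with filled points for an adjusted p under 0.05, a line at the median of each list and the number of genes in parentheses. The median of the subunits (0.33) lies below that of glycolysis (0.43) and above those of the mitochondrial ribosome (0.20) and the cytosolic ribosome (-0.15).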

How the data were processed

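Uterine RNA was isolated with TRIzol, made into libraries with the TruSeq RNA kit and sequenced as paired ends on an Illumina HiSeq. The authors filtered the reads, aligned them to mm10 with TopHat2 2.0.4 and deposited FPKM from Cufflinks (2.0.2 in the submitters' processing notes). The annotation behind the table is not given in the sources used here, and depth is unknown. The table held 0 columns of other samples.

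The deposited FPKM were used without further scaling as log2(FPKM + 1), on which fold changes of low genes are understated. Genes above 1 FPKM in the mean of at least 1 genotype (14728) were compared with limma 3.58.1 in R 4.3.3 (trend, unpaired, Benjamini-Hochberg over all of them), a step tested on simulated data. Cuffdiff, which needs reads, was not run. Ratios were compared by exact permutation tests (SciPy 1.17.1). Positions and transcript lengths came from GENCODE M21 on mm10, promoters from RefSeq and shared sequence from BLAST 2.17.0. p-values measure the spread between mice.

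The members and lists were chosen with earlier results of these data known. Named were all called members (at most 8 per complex), the extremes and the most abundant gene of each complex, isoform sets, core subunits, genes that encode no subunit, and up to 3 called genes of each other list; *Esrra*, *Ppara*, *Nrf1*, *Tfam*, *Gabpa*, *Vmac*, *Shmt2*, further called members of a complex and a few uncalled subunits were added once their values had been seen. Some genes that this rule would name are not reported here, although counts and medians include them. As alternatives, the fit was repeated without each library in turn, with pseudocounts of 0.1 and 0.01, with no filter or one at 5 FPKM, with values scaled to the median or quantile normalized, with a transcript length trend removed, with limma's trend off, robust estimation on or libraries weighted, with the replicate number as a block, and with a fold criterion of 1.2.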

Additional observations from a re-analysis of the deposited data

Results flagged for a closer look

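Dixon's test at the 95% level was run on 128 groups of 4 or 5 libraries, and 12 were flagged where chance gives about 1 in 20, or 6.4. In 6 of the 12, Wnk1f/f replicate 4 was the low library: *Atp5a1* at 303.86 FPKM (other controls 350.99 to 356.2), *Atp5c1* at 150.4 FPKM (169.96 to 170.43), *Ndufa1* at 110.52 FPKM (173.4 to 176.26), *Ndufaf2* at 28.87 FPKM (38.25 to 39.91), *Ndufv2* at 63.99 FPKM (78.16 to 80.72) and *Uqcrq* at 132.88 FPKM (206.99 to 212.47). Wnk1f/f replicate 2 was high for *Cox7a2l* at 208.77 FPKM (other controls 135.82 to 140.91) and for *Ndufa4l2* at 18.15 FPKM (14.8 to 15.07).

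Among the Wnk1d/d libraries, replicate 2 was low for *Ndufab1* at 56.54 FPKM (others 70.05 to 74.99) and *Ndufs1* at 41.54 FPKM (46.52 to 46.78). Wnk1d/d replicate 1 was low for the ratio of *Cox4i2* to *Cox4i1*, 0.557% against 0.803% to 0.857%, and for that of *Cox6b2* to *Cox6b1*, 4.17% against 5.70% to 6.27%.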

How the results depend on the processing

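In the main fit 27 genes were higher in Wnk1d/d uteri (31.4%, against 11.1% of all genes). Under the 20 alternatives, the number was 17 with no filter on FPKM (19.8%, against 6.48%). It was 15 with quantile normalization (17.4%, against 10.3%) and 40 with library weights (46.5%, against 14.7%). Without 1 library it was 6 to 45, with the shares given above. The number of DEGs was 6 in the main fit, where 10.3% of all genes were DEGs. It was 4 to 12 without 1 library and 30 at a fold criterion of 1.2 (met by 20.7% of all genes). The 3 lower genes were 2 or 3 without 1 library. With the replicate block 0 members were higher, 0 lower and 0 DEGs, and 259 of all genes were called. Replicate numbers are shared by different mice, and same-numbered libraries did not deviate together (r = -0.087, -0.003, 0.022 and -0.268), so the block pairs by number only. The median of the Atp5 genes moved to 0.10 under quantile normalization.

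Among the named genes recomputed under the alternatives (*Ndufa9* was not), those that reversed had not passed the test. Under quantile normalization the log2 fold changes were -0.02 for *Atp5a1*, -0.02 for *Atp5g2*, -0.01 for *Atp5l*, -0.08 for *Cox7a2l*, 0.00 for *Cox8b*, -0.04 for *Uqcrc2* and -0.16 for *Uqcrh*. With the length trend removed *Atp5l* was at -0.02. Over the fits without 1 library the values ranged from -0.04 to 0.11 for *Atp5g2*, -0.14 to 0.11 for *Atp5l*, -0.01 to 0.23 for *Cox7a2l*, -0.18 to 0.09 for *Cox8b* and -0.01 to 0.14 for *Uqcrh*. The cause of these changes was not tested. The calls of *Ndufa11*, *Ndufab1*, *Ndufs8*, *Ndufaf5*, *Cox4i2* and *Ndufa4l2* were kept in all alternatives but the block. Depth is unknown, so no limit from counts can be given.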
